A study of Drosophila melanogaster with 42 samples.

Results

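MSL3 was mapped in M1[WT] males and in M1[WT]+MSL2 females of *Drosophila melanogaster*, and the 2 deposited lists of peaks were compared record by record, each record being 1 peak. All records of both lists were used, 6129 from the males and 1546 from the females, 7675 of the 39130 records in the 6 lists of the series. A record was called shared where a record of the other list lay within 500 bp of its edges, and male-only or female-only where none did. The series has 42 ChIP-seq libraries of whole adult flies in 22 conditions, of which 4 are used here, 2 biological replicates for each list. The labels give an age of 3 days.

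Both groups lacked endogenous MSL1 (msl-1 null, msl-1L60/msl-1γ269) and expressed wild-type MSL1 from a Ubi:msl-1WT transgene, driven by the Ubi-p63E promoter at position 86F8. The males were homozygous for that transgene and had their endogenous msl-2. The females carried 1 copy of it and 1 copy of Ubi:msl-2WT-FLAG, which supplies the MSL2 that wild-type females do not make. Sex, the copy number of the MSL1 transgene, the source of MSL2, and the way in which the lists were built therefore differ together between the groups and cannot be told apart. One label of the male MSL3 libraries gives the genotype with MSL2, whereas their titles and the methods name M1[WT]. Over the msl-2 gene, the female MSL1, MSL2 and MSL3 lists each held 2 records. The male MSL1 list also held 2 there, while the male MSL2 and MSL3 lists held none.

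In flies, the MSL complex brings transcription from the single male X chromosome up to the output of the female pair. MSL2 and MSL1 carry the complex to high-affinity sites (HAS), where the DNA holds GA-rich MSL recognition elements, and the roX RNAs are part of the complex. MSL3 has a chromodomain that binds nucleosomes with methylated histone H3 lysine 36, a mark of the bodies of transcribed genes, and is needed for the complex to occupy genes away from HAS. MOF, another subunit, acetylates histone H4 at lysine 16. Females lack the complex because Sxl blocks translation of msl-2, so the comparison asks where MSL3 sits when MSL2 is supplied to females and where it sits in males.

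The sequences below show what lay under summits, the points of highest enrichment. Each is the + strand of the dm6 assembly over 101 bases centred on the summit, read from RefSeq's Release 6 genome. The first 4 are female summits of shared autosomal records, whose 8-base word CAAGCAGT, or ACTGCTTG on the other strand, is in capitals. This word was picked after the data were seen, as the word of 8 bases with the largest excess at shared autosomal female summits over autosomal start sites.
T48, chr3R:26881482-26881582: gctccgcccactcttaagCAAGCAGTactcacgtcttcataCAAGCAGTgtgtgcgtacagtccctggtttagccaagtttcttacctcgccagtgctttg
CG6073, chr3R:26188837-26188937: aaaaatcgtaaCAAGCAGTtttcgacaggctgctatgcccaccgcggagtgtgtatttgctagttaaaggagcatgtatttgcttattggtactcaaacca
bor, chr3R:16260528-16260628: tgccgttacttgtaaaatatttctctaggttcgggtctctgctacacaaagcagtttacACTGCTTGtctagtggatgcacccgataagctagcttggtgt
Men-b, chr3R:27151528-27151628: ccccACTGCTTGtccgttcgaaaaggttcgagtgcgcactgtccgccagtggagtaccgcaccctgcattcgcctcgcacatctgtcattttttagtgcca
The next 2 are the strongest shared records of the female X chromosome, and no GA repeat of 8 bases lies in either window.
Tlk, chrX:3719779-3719879: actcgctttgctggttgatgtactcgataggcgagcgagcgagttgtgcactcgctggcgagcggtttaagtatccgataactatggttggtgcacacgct
Hr4, chrX:1953081-1953181: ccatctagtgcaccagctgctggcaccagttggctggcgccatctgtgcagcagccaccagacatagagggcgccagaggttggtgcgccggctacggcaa
The next is a shared female X summit in an exon of dx, with the word GCAGCAGC in capitals, and the last is a male-only X summit in an exon of CanA-14F, with GA repeats in capitals. Capitals mark matches of 8 bases that do not overlap, so a repeat can run on into small letters.
dx, chrX:6536510-6536610: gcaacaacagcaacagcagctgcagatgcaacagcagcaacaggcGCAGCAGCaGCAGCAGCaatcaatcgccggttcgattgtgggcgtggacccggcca
CanA-14F, chrX:16562410-16562510: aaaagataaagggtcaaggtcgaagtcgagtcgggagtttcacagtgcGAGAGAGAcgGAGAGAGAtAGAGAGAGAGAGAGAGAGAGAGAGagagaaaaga

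Nearly all female MSL3 records had a male counterpart, while most male records had none in females. Of the 1546 female records, 1443 (93.3%, 95% Wilson interval 92.0 to 94.5) lay within 500 bp of a male record, and of the 6129 male records 1166 (19%, 18.1 to 20.0) lay within 500 bp of a female record. The same share on the X chromosome was 96.5% of 1100 female records and 42.0% of 1829 male records. On the autosomal arms it was 91.9% of 409 female records and 9.16% of 4289 male records. These shares depend on what counts as shared: with summits required to lie within 500 bp of each other, the female share was 51.2% on the X chromosome and 85.6% on the autosomal arms, which turned their order. With both lists limited to the same number of records, the male share was 68.0% on the X chromosome and 43.6% on the autosomal arms. For comparison, 22.8% of the X chromosome and 7.96% of the autosomal sequence lay within 500 bp of a male record, and 9.36% and 0.518% within 500 bp of a female record. Each group had 1 list, and records of a list are not replicates of a condition, so no test was made over records; intervals cover counting error across records only and say nothing of the variation between flies. The lists give no numbers of reads, so the depth behind a record is unknown.

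The X chromosome held 71.2% (68.8 to 73.4) of the female records but 29.8% (28.7 to 31.0) of the male records. In females the X chromosome had 46.7 records per Mb against 3.71 per Mb on the autosomal arms, and in males 77.7 against 38.9 per Mb. Among the large autosomal arms the female shared count ran from 75 of 85 records on 2L to 134 of 142 on 3R, and on unplaced X sequences 1 of 27 female records was shared. Of the male records, between 8.02% on 3L and 10.97% on 3R were shared on the large autosomal arms. The small chromosome 4 had 78 male records and no female one. With both lists limited to the 1546 records of highest −log10 p, 57.9% of the male records were on the X chromosome, and 81.8% of the female and 57.8% of the male records were shared.

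**Figure D1:**
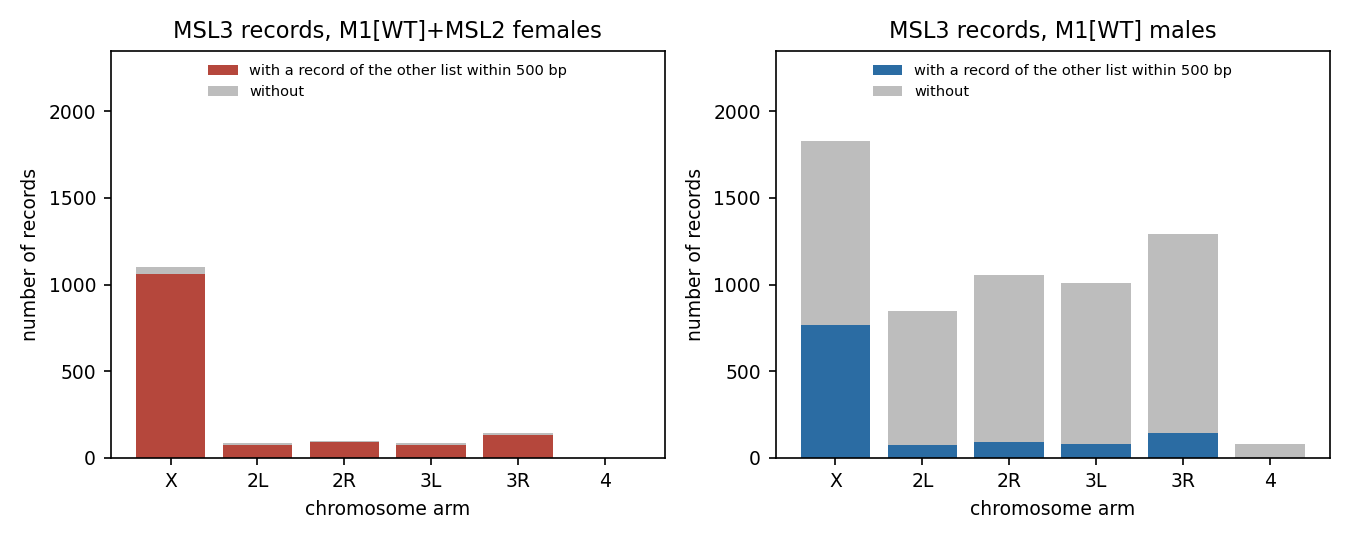
Number of MSL3 records (y axis) on each chromosome arm (x axis) in the list of M1[WT]+MSL2 females and in that of M1[WT] males; the coloured part of a bar counts records with a record of the other list within 500 bp and the grey part those without. On the X chromosome 1062 of 1100 female and 769 of 1829 male records were shared, and chromosome 4 had 78 male and 0 female records.

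Counted in bases, the female records were nested in the male ones. On the X chromosome the male records covered 4018556 bp (17.1% of the chromosome) and the female records 1316038 bp (5.59%), of which 98.4% was also covered in males. On the autosomes the male records covered 5041687 bp (4.57%) and the female records 171701 bp (0.156%), 88.7% of it covered in males too. The male cover was thus 3.05 times the female cover on the X chromosome and 29.4 times on the autosomes. A male MSL3 record overlapped 1391 of 2196 X-linked protein-coding genes (63.3%) and a female record 748 (34.1%), 734 genes having both. On the autosomal arms the counts were 3204 of 11749 genes (27.3%) in males and 364 (3.10%) in females, with 347 in both. Chromosome 4 had a male record at 40 of its 80 genes and a female record at 0 of 80. The latter allows a share of up to 3.75% by a limit of 3 counts of the total, and the Wilson interval runs up to 4.58%.

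Genes for cytoplasmic ribosomal proteins, a group chosen after the values were seen, had male MSL3 records more often than protein-coding genes as a whole. Of these genes (symbols beginning RpL or RpS), 14 of 14 on the X chromosome (interval from 78.5%) and 62 of 78 on the autosomes (79.5%, 69.2 to 87.0) overlapped a male record, against 63.3% and 27.3% of all protein-coding genes. A female record overlapped 8 of 14 on the X chromosome (57.1%, 32.6 to 78.6), an interval that includes the 34.1% of all X-linked genes, and 8 of 78 on the autosomes (10.3%, 5.29 to 18.95), against 3.10%. Mitochondrial ribosomal protein genes on the X chromosome had a male record at 11 of 11 (interval from 74.1%) and a female record at 7 of 11 (63.6%, 35.4 to 84.8). Autosomal mitochondrial ribosomal protein genes had a male record at 20 of 62 (32.3%, 22.0 to 44.6) and a female record at 2 of 62 (3.23%, 0.889 to 11.02), intervals that include the shares of all autosomal genes. Among other groups counted, snoRNA genes had a male record at 24 of 30 on the X chromosome (80.0%, 62.7 to 90.5). On the autosomes it was 66 of 227 (29.1%, 23.6 to 35.3). Both intervals include the shares of all protein-coding genes, 63.3% and 27.3%. A female record lay at 9 of these 30 (30.0%, 16.7 to 47.9), against 34.1%, and at 1 of these 227 (0.441%, 0.0778 to 2.45), against 3.10%. Of 14 autosomal ATP synthase genes, 8 had a male record (57.1%, 32.6 to 78.6), against 27.3%. A female record lay at 1 of these 14 (7.14%, 1.27 to 31.5), an interval that includes 3.10%. With groups picked in this way, the intervals describe the genes counted and are no test.

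The strongest records of each list were shared. Ranks run from 1 for the highest −log10 p within a list, and values are used only as such ranks. The strongest female record, 1128 bp wide, lay at the promoter of Tlk, the Tousled-like kinase, and its male partner ranked 34 with a summit 6 bp away. The record of rank 2 lay in an intron of Hr4, which encodes a nuclear receptor, with a partner of rank 14 and the summits on the same base. The fourth lay 194 bp before the start of cib, which encodes an actin-binding thymosin, and its partner ranked 44. These 3 summits were 17346 to 27618 bp from the nearest HAS. In the male list, the strongest shared X records were those of CG2278 (rank 2), sta, which encodes a ribosomal protein (rank 3), and Rip11, a Rab11 effector (rank 5), at 276, 1666 and 53 bp from a HAS, and their nearest female partners ranked 68, 24 and 127.

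Autosomal sites stood at the top of both lists as well. Male rank 1 was a record of 727 bp in an exon of CG11905 on 3L, and its female partner ranked 34 with a summit 9 bp away. The male record 456 bp before MCU, the mitochondrial calcium uniporter, ranked 4, and that nearest to dikar ranked 9, with female partners of rank 28 and 31 and summits 7 and 1 bp away. The strongest autosomal female records, added to the named genes after their values were seen, lay by the start sites of ATPsynC, subunit c of the mitochondrial ATP synthase (rank 3), T48, which acts in apical constriction at gastrulation (rank 5), and Galphai, a G protein subunit (rank 6). Their male partners ranked 12, 13 and 27. All 6 of these autosomal records had a record of MSL1 and of MSL2 in the same flies within 500 bp.

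Whether a male record was shared went with its rank. Percentiles are given within the male list, 100 being the strongest. Among X records 97.7% of those above the 95th percentile were shared, 87.6% of those from the 90th to the 95th, 45.9% from the 75th to the 90th, 23.8% from the 50th to the 75th, 10.2% from the 25th to the 50th and 13.2% (9.38 to 18.4) below. On the autosomes the corresponding shares were 97.7, 64.9, 29.3, 6.65, 1.78 and 1.14%. At the top the X and autosomal shares were both 97.7%, while the X share was higher in each of the other 5 bins, with intervals that did not overlap. The X chromosome also had more sequence within 500 bp of a female record, 9.36% against 0.518% of the autosomes, and the X shares of the 2 weakest bins were near the former. Among male X records the share was also higher near a HAS: 78.4% (68.7 to 85.7) of 88 records with the summit within 500 bp of a HAS, 70.4% at 500 to 2000 bp, 53.3% at 2000 to 5000 bp, 38.3% at 5000 to 10000 bp, 30.4% at 10000 to 20000 bp, 25.2% at 20000 to 50000 bp and 30.5% farther out. Records near a HAS were also wider, with a median of 3554.5 bp in the nearest class and 788 bp in the farthest, and a wide record has more room for a partner; the part of width in this order was not tested.

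**Figure D2:**
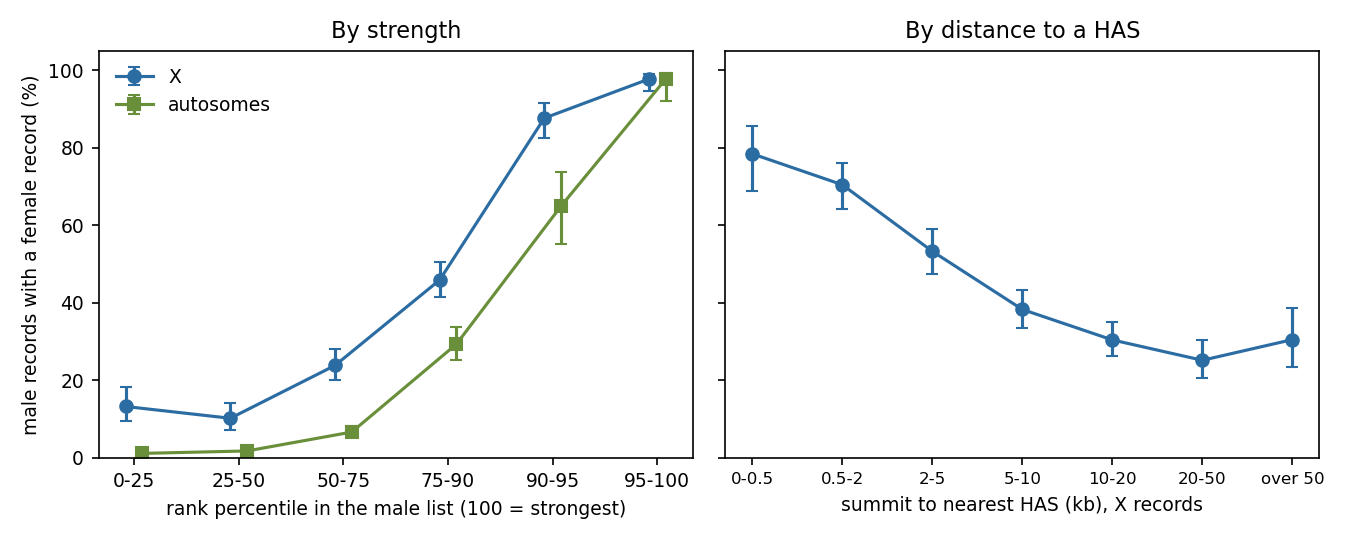
Percent of male MSL3 records with a female record within 500 bp (y axis, bars are 95% Wilson intervals), left by rank percentile in the male list for X and autosomal records, right by distance from the summit to the nearest HAS for X records. The share was 97.7% above the 95th percentile on both, and on the X chromosome was 78.4% within 500 bp of a HAS and 25.2% at 20000 to 50000 bp.

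Male records were wider than female ones. The median width on the X chromosome was 1343 bp (1260 to 1439, order-statistic interval) in males and 867.5 bp (806 to 919) in females, and on the autosomes 894 and 344 bp. Shared male X records had a median of 2509 bp (interquartile range 1147 to 4429), male-only X records 966.5 bp. On the male autosomes the order was the other way, 770 bp for shared and 903 bp for male-only records. In females the shared X records had a median of 886.5 bp, shared autosomal records 347.5 bp and the 38 female-only X records 377 bp. The male partner was the wider record in 1042 of 1062 X pairs, by a median factor of 3.49, and in 359 of 376 autosomal pairs, by a factor of 2.07. The female list gives the positions of the first input of the reproducibility analysis and the male list mostly does not, 38 of its 6129 records having them. With the male positions of that input in use, an alternative chosen after seeing the data, the median male X width was 1263 bp.

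**Figure D3:**
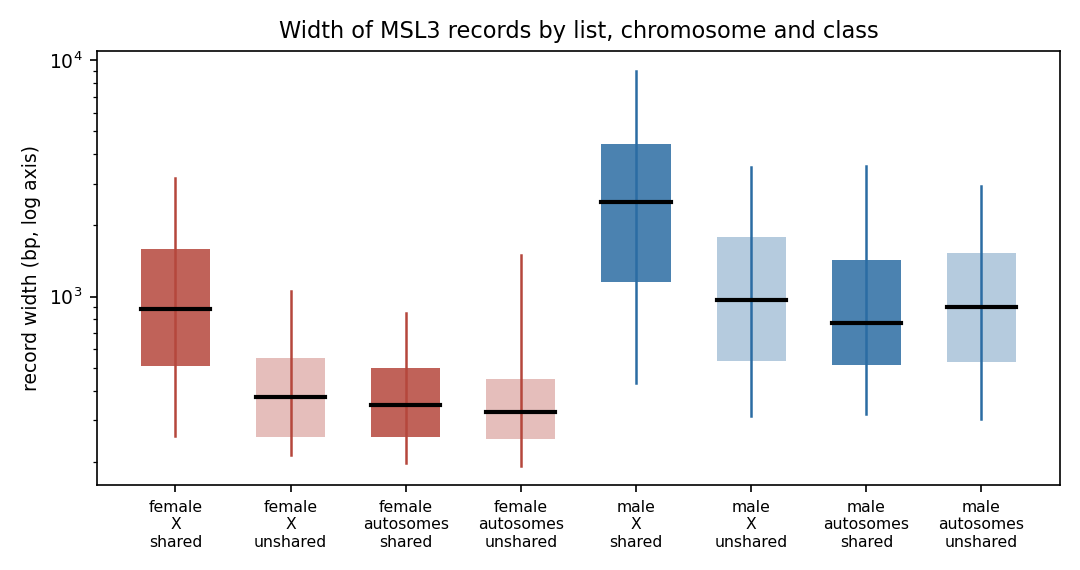
Width of MSL3 records in bp on a log axis (y axis) for each list, chromosome class and shared or unshared status (x axis); boxes run from the 25th to the 75th percentile, black lines are medians and thin lines run from the 5th to the 95th percentile. Shared male X records had the largest median, 2509 bp, and female-only autosomal records the smallest, 323 bp.

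The widest male record covered 26305 bp of the X chromosome, its summit in Coa8, which encodes an assembly factor of cytochrome c oxidase, and faced 8 separate female records. The next 2 were 18940 bp at CG12204, with 7 female partners, and 18807 bp at HUWE1, a ubiquitin ligase, with 4. In all, 295 of the 769 shared male X records had 2 or more female partners, and 113 had 3 or more. Male records with a single partner numbered 474, and the median width was 8693 bp for the 43 with at least 4. On the autosomes 14 of 393 shared male records had more than 1. In the other direction 174 of 1062 female X records faced 2 or 3 male records, among them a record in an exon of crn and one in an exon of Act5C, an actin gene, with 3 each. The widest female record, 11172 bp over HERC2, a ubiquitin ligase gene, had a male partner of 15794 bp and a summit 1 bp from it. Those of Rbcn-3A (10622 bp) and trr, a histone H3 lysine 4 methyltransferase gene (7786 bp), lay within male records of 12210 and 26305 bp.

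The summits of paired records mostly coincided on the autosomes and often did not on the X chromosome. Each female record was paired with the male partner of nearest summit. A male record can thus stand in several pairs, with 1 summit for all of them. On the X chromosome 295 of 769 shared male records had 2 or more female partners, and on the autosomes 14 of 393. The intervals treat pairs as separate, and the part of shared male records in the distances was not tested. The median summit distance was 11 bp (9 to 13) in 376 autosomal pairs, of which 318 (84.6%) were within 50 bp. In 1062 X pairs it was 293.5 bp (171 to 501), with 378 pairs (35.6%, 32.8 to 38.5) within 50 bp and 367 (34.6%) over 1000 bp apart. Even so, the female summit lay inside the male record in 1041 X pairs (98.0%) and 373 autosomal pairs (99.2%). Each list also gives the summits of the 2 inputs of its reproducibility analysis. The highest global irreproducible discovery rate of the female list, 0.00998, is under the limit that the methods give for pseudoreplicates, so its inputs may be splits of the same pooled reads, which would leave out the spread between replicates. In the same X pairs the 2 female inputs differed by a median of 38 bp and the 2 male inputs by 19 bp, and in the autosomal pairs by 11 and 10 bp. The distance between the sexes was larger than both input distances in 634 X pairs (59.7%) and in 136 autosomal pairs (36.2%).

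**Figure D4:**
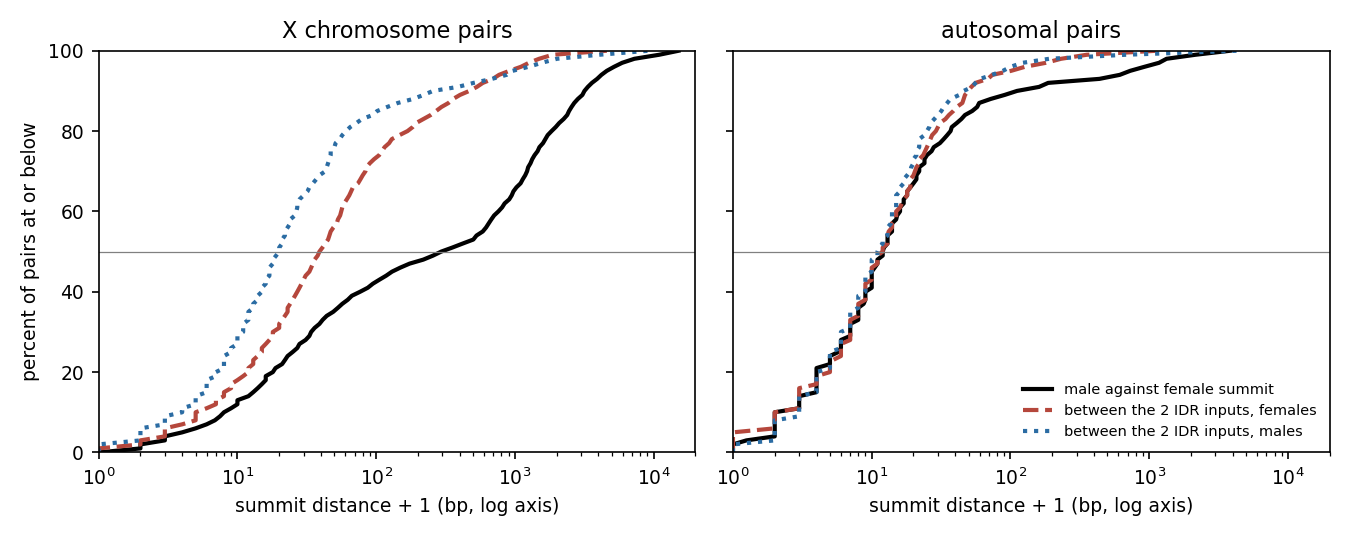
Cumulative percent of pairs (y axis) by summit distance in bp plus 1 on a log axis (x axis), for X pairs and autosomal pairs; the solid line compares the male with the female summit, the dashed and dotted lines the 2 inputs within the female and the male list. On the autosomes the medians are 11, 11 and 10 bp, but the curves part at the top, where the 90th percentiles are 110.5, 48.5 and 45 bp. On the X chromosome the medians are 293.5 bp between the sexes and 38 and 19 bp within the lists.

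The X distance went with the width of the male record. Wide male records also had more female partners, the 295 with 2 or more having a median width of 4518 bp. The part of such shared male records in this order, and in the directions below, was not tested. It had a median of 23.5 bp in 124 pairs with a male record of up to 1000 bp, 52 bp for widths up to 2000 bp, 117 bp for up to 4000 bp and 1215 bp (1013 to 1407) in the 532 pairs with wider male records. In those 532 pairs the female inputs differed by a median of 50 bp and the male inputs by 17 bp. Among pairs with male records of up to 1000 bp, the X distance of 23.5 bp compared with 9 bp on the autosomes. In those X pairs the female inputs differed by a median of 17 bp and the male inputs by 18 bp. In those autosomal pairs the medians were 9 and 8 bp. The distance between the sexes was larger than both input distances in 39.5% of those X pairs and 34.9% of those autosomal pairs. Where both summits lay in the same single protein-coding gene and on different bases, the male summit was nearer to the 3′ end in 439 of 773 X pairs (56.8%, 53.3 to 60.2), with a median shift of 12 bp toward that end. On the autosomes the same held for 106 of 184 pairs (57.6%, 50.4 to 64.5), with a median of 3.5 bp. Among the pairs over 200 bp apart it held for 230 of 364 on the X chromosome (63.2%, 58.1 to 68.0), with a median of 556 bp, and for 14 of 17 on the autosomes, with a median of 1155 bp.

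The largest X distances came from the widest male records. Female records in CG32533 and mRpS14, the latter a mitochondrial ribosomal protein gene, had summits 15114 and 14261 bp from that of the CG12204 record, and the female record in arm, the fly beta-catenin gene, had its summit 13805 bp from that of the Coa8 record. In all 3 the female summit lay within a single long male record and ranked 1439, 1496 and 501 of 1546. The largest autosomal distances were 3828 bp in Uba1, the ubiquitin-activating enzyme gene, 2680 bp in atos and 2337 bp at Hydr1, all on 2R. At Hydr1 the female summit lay 26 bp from the start site and the male summit in an exon.

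Ranks of paired records went together in part. Spearman's rho was 0.44 across 1062 X pairs and 0.60 across 376 autosomal pairs; several pairs share a male record, and all share their libraries. Within lists, the −log10 p of the 2 inputs had a rho of 0.98 on the male X chromosome and 0.79 on the female, and of 0.92 and 0.93 on the male and female autosomes. The listed records had passed a limit on the reproducibility between these same inputs. The values within lists are therefore no yardstick for those between the sexes. For X pairs with summits within 50 bp rho was 0.53. The 3 X pairs whose percentile in the male list most exceeded that in the female list were those of wuho, CG42259 and Smyd3, with female ranks of 1542, 1530 and 1535 and male ranks of 76, 47 and 177, inside male records of 16710, 7044 and 6169 bp. The 3 most unequal the other way were at a 28S rRNA pseudogene (28SrRNA-Psi:CR45859, female rank 118, male rank 4286, summits 4 bp apart), at CG15201 (389 and 4736) and at CG3847 (759 and 6124). At CG15201 and CG3847 the direction depends on the choice of the nearest summit, since each female record faced a second male record, of rank 243 and 667, with which the male percentile is the higher one.

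Summits lay in different parts of genes on the X chromosome and, where shared, on the autosomes. A summit was put in the first class it met of promoter (within 500 bp of a start site), exon, intron and intergenic. On the X chromosome 73.4% of shared female summits and 71.4% of shared male summits were exonic and 21.3% and 21.1% at promoters, where exons and promoters make up 21.5% and 12.6% of the sequence. Shared autosomal summits were at promoters in 67.3% (62.4 to 71.8) of female and 62.6% of male records and exonic in 13.3% and 16.8%. Start sites of tRNA and other non-coding genes count as promoters here. Promoter summits nearest to a protein-coding start site made up 56.4% of shared autosomal female and 52.4% of shared autosomal male records, against 22.4% of male-only autosomal ones. Male-only summits were exonic in 60.7% of X and 61.7% (60.2 to 63.2) of autosomal records and at promoters in 23.0% and 25.7%. Autosomal promoters and exons make up 13.8% and 19.4% of the sequence. The median distance to a start site was 106 bp for shared autosomal female summits, 158 bp for shared autosomal male summits, 1112 bp for male-only autosomal summits and 1359 bp for shared female X summits. Within protein-coding genes, summits stood at a median of 60.2% of the gene's length from its start for shared female X records, 58.8% for male-only autosomal records and 30.7% for shared female autosomal records.

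Position went with rank among male records. From the 50th to the 75th percentile, 55 of 73 shared autosomal summits (75.3%) and 249 of 1025 male-only ones (24.3%) were at promoters, and from the 75th to the 90th 70.9% and 38.4%. Above the 90th percentile 84 of 149 shared and 9 of 36 male-only autosomal summits were at promoters. Below the 50th percentile few autosomal records were shared, and no clear promoter excess was seen among them. From the 25th to the 50th, 6 of 22 shared (27.3%) and 24.4% of male-only autosomal summits were at promoters. In the weakest bin it was 6 of 15 shared (40.0%, 19.8 to 64.3) and 24.8% of male-only ones. On the X chromosome the promoter share of shared records was 8.56% above the 90th percentile, 22.3% from the 75th to the 90th and 46.1% from the 50th to the 75th. Male-only X records had 19.4% (6 of 31), 14.1% and 22.4% in the same bins. Above the 90th percentile the shared X share was thus the lower one, with intervals that overlapped. From the 25th to the 50th the X shares were 63.3% of shared and 31.1% of male-only records, and below that 51.7% and 25.3%. With both lists limited to 1546 records, the exonic share of male-only autosomal summits was 36.3% in place of 61.7%.

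**Figure D5:**
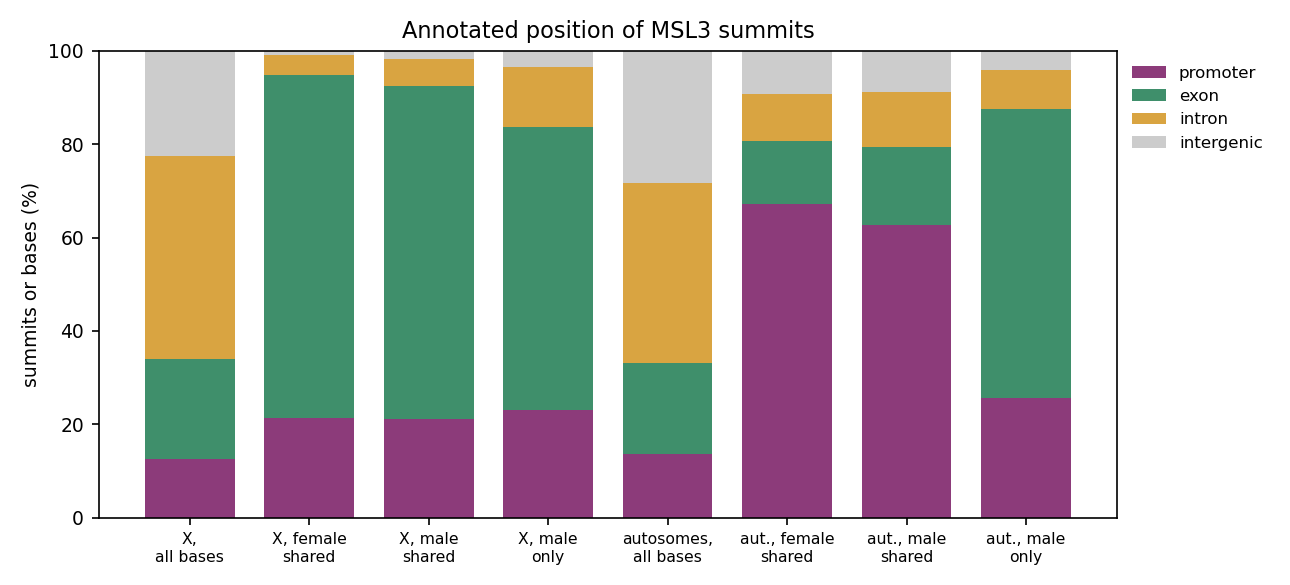
Percent of summits, or of all bases, in each annotated class (y axis) for X and autosomal records by list and status (x axis; aut. stands for autosomes); the bars marked all bases give the share of the chromosome sequence. Shared autosomal summits were mostly at promoters (67.3% in females), whereas shared X summits (73.4% in females) and male-only autosomal summits (61.7%) were mostly exonic.

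Some of the shared autosomal sites had an 8-base word in common. The word CAAGCAGT or its complement ACTGCTTG lay within 50 bp of 30 of 376 shared female autosomal summits (7.98%, 5.65 to 11.2) and of 31 of 393 shared male ones (7.89%). It lay at 42 of 3896 male-only autosomal summits (1.08%), at 12 of 1062 shared female X summits (1.13%), at 0.539% of windows of 101 bases around autosomal start sites and in 0.276% of all such autosomal windows. Those of T48, CG6073, bor and Men-b printed above ranked 5, 8, 11 and 25 in females and 13, 46, 66 and 33 in males, with summits 0 to 12 bp apart, and the T48 window held the word at 2 places. The bor product is a mitochondrial AAA ATPase and Men-b a malic enzyme. At shared female X summits the word GCAGCAGC or GCTGCTGC was found in 8.19% of windows, against 1.98% of all X windows; at male-only autosomal summits it was in 7.78%, against 1.69% of all autosomal windows. That word was likewise picked after the data were seen, as one with a large excess at these same summits, so these shares describe the choice.

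Genes for tRNAs made up a further part of the shared autosomal sites. A female record overlapped 38 of 269 autosomal tRNA genes (14.1%, 10.5 to 18.8) and a male record 41 (15.2%), with 31 in both, whereas for autosomal protein-coding genes the shares were 3.10% and 27.3%. Of the shared female autosomal records 25 of 376 (6.65%) overlapped a tRNA gene, and of the male-only autosomal records 5 of 3896 (0.128%). Of the 33 female-only autosomal records 6 did. Fewer of these shared records had MSL2: a female MSL2 record lay within 500 bp of 2 of the 25 (8.00%) and of 151 of the other 351 (43.0%). A female MSL1 record lay at 5 of the 25 (20.0%) and at 104 of the 351 (29.6%), a smaller gap. Of their male partners, 6 of 25 and 240 of 343 (70.0%) had a male MSL2 record, and 12 of 25 and 304 of 343 a male MSL1 record. The tRNA group was chosen after the values were seen.

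MSL1 and MSL2 lists of the same flies show which MSL3 records had another subunit. On the male X chromosome, 98.0% of shared MSL3 records had an MSL1 record within 500 bp and 92.8% an MSL2 record, and of the male-only records 89.3% and 72.0%. On the male autosomes MSL1 accompanied 86.8% of shared and 86.1% of male-only records, while MSL2 accompanied 68.2% (63.4 to 72.6) and 42.7% (41.1 to 44.2). The male MSL1 list comes from 1 library and holds 21980 records. In females, shared X records had MSL1 in 47.1% and MSL2 in 68.8% (66.0 to 71.5), and shared autosomal records in 29.0% and 40.7%. The female MSL1 list holds 905 records, so these shares cannot be compared between the sexes as levels. A HAS lay within 500 bp of 33.7% of shared and 5.75% of male-only male X records, and of 30.6% of shared and 0 of 38 female-only female X records. The latter allows a share of up to 7.89% by a limit of 3 counts of the total, and the Wilson interval runs up to 9.18%. All these counts run from the edges of a record, and a wide record has more room for a neighbour. Shared male X records had a median width of 2509 bp and male-only ones 966.5 bp, and the part of width was not tested. The share of sequence within 500 bp of the MSL1 and MSL2 records was not computed, so these shares do not by themselves show co-occupancy.

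GA repeats, 8 alternating bases of G and A (GAGAGAGA or AGAGAGAG, which share 7 bases when shifted by 1) or their complements (TCTCTCTC or CTCTCTCT), are a short stand-in for the GA-rich core of the MSL recognition element. They lay within 100 bp of 8.30% (6.79 to 10.1) of male-only X summits, 4.94% of shared male X summits and 3.20% (2.30 to 4.44) of shared female X summits, against 1.97% of all X windows of 201 bases. On the autosomes the shares were 3.36% of male-only, 3.82% of shared male and 2.66% of shared female summits, against 1.39% of windows. The male-only X summits with a GA repeat within 50 bp of best rank were those of CanA-14F, a calcineurin subunit gene (male rank 491), whose repeats are printed above, and of hep, a kinase gene of the JNK pathway (rank 514).

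The 3 strongest male-only records on the X chromosome ranked 252, 265 and 285 of 6129. They lay in an exon of baz, the Par-3 polarity gene, 280 bp from a HAS, in an exon of tty, 811 bp from a HAS, and by a start site of the ribosomal protein gene RpS19a, 14569 bp from one, and each had male MSL1 and MSL2 records. The strongest male-only autosomal records ranked 165 at mod(mdg4), a chromatin protein gene, 198 at eEF1alpha1, a translation elongation factor, and 328 at GstS1, a glutathione S-transferase, the last without MSL1 or MSL2. On chromosome 4 the best ranks were 945, 1098 and 1133, in sv and the overlapping gene Cals, in Asator and in gw, a component of miRNA silencing complexes; these 3 were added after their values were seen. None of the 3 had MSL2 within 500 bp.

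Female-only records were few. Of 103, 38 lay on the X chromosome, 33 on the autosomal arms and 32 elsewhere, 26 of these on unplaced X sequences where the male list had 1 record in all. Their median rank of 1546 was 1216 for X and 1009 for autosomal records, while the 32 off the arms stood at a median percentile of 68.9, the best at rank 84. How reads of repeated sequence were assigned is not given in the sources used here. The strongest on the arms ranked 273 by TM9SF3, 452 in the proximal X chromosome at chrX:23530735-23531137 and 454 in Roc2, a ubiquitin ligase subunit gene, and none of these 3 had MSL1 or MSL2 of the same flies. Of all female-only records, however, 15 of 38 on the X chromosome (39.5%, 25.6 to 55.3) and 19 of 33 on the autosomes (57.6%, 40.8 to 72.8) had a female MSL2 record, against 68.8% and 40.7% of the shared ones. On the X chromosome the median gap to the nearest male record was 15278 bp, 12 of the 38 gaps being at most 5000 bp, and 13 summits (34.2%) were intergenic, against 0.942% of shared ones. In the 10% of the X chromosome nearest to the centromere lay 9 of the 38 (23.7%) and 42 of the 1062 shared records (3.95%). The 51 bases at the summit had another exact copy in the assembly for 4 of the 38 and for 1 of the 1062.

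Genes of the complex and of the transgenes were looked up by name, and a record at or near a gene was counted even where its summit lay outside it. That was so of the records of mof and roX2 named below, and of those of best rank at Sxl and Ubi-p63E. At roX1 and roX2, whose RNAs belong to the complex and whose genes hold HAS, the best male ranks were 8 and 225 and the best female ranks 167 and 214. The gene mof had a male record of rank 160 and 5391 bp and no female one. The summit of that record, at chrX:5878430, lay outside the gene, which spans chrX:5873840-5876853. A male record and no female one also lay at msl-1 (rank 1101), Clamp, which encodes a GA-binding zinc finger protein (917), CTCF, an insulator protein gene (2343), mle, the RNA helicase of the complex (5610), and msl-3 itself (6086). Sxl, the female-specific regulator of msl-2, had 1 female record of rank 96 and 301 bp against 5 male records, the best of rank 501. At Ubi-p63E, whose promoter drives both transgenes, there was 1 female record (rank 1080) and 3 male ones (best rank 2767), and y had a record in neither list. The MSL1 transgene holds sequence of msl-1, Ubi-p63E, CTCF and y. Males were homozygous for it and females had 1 copy, but the females also carried the Ubi-p63E promoter in 1 copy of the MSL2 transgene. The IgG libraries came from control flies. Reads from the transgenes and from these genes cannot be told apart in the lists.

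The gene msl-2 was the exception, with 2 female MSL3 records and no male one. They lay at chr2L:3463311-3463607 (rank 1031) and chr2L:3463834-3465587 (rank 1104). The female MSL2 list had records at chr2L:3463306-3463617 and chr2L:3463806-3465768, and the female MSL1 list at chr2L:3463302-3465601 and chr2L:3465976-3466338. In males the MSL1 list had records at chr2L:3465224-3465604 and chr2L:3466059-3466531, of rank 10270 and 2475 of 21980. The females carry msl-2 sequence in a transgene as well, and reads from the transgene and from the gene cannot be told apart in these lists.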

How the data were processed

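The labels describe ChIP-seq of MSL3 from whole flies, 2 replicates a group. After cutadapt, Bowtie 2 (dm6) and Picard, the authors ran MACS2 with an IgG control and then IDR, a test of reproducibility between 2 inputs; dm3 is also named in the submitters' processing notes, with no role. IgG libraries came from control flies only. The deposited lists give a position, a summit offset in bp, a fold enrichment over IgG (a ratio), and −log10 values of p, q and IDR, which were read here only as ranks or limits within a list. The highest global IDR was 0.050 in the male and 0.00998 in the female list, and the limits in the study's methods are 0.01 (pseudoreplicates) and 0.05 (true replicates). All 1546 female records have the position of IDR input 1, as do 38 male ones. The deposited −log10 p of a male record had a median of 0.931 times the sum of those of its 2 inputs, and of a female record 0.500 times.

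Records were paired within 500 bp between edges, and the nearest summit chose the partner. Genes came from Ensembl release 115 and sequence from RefSeq Release 6, both in dm6 coordinates, and the positions of 301 HAS from the study. HAS, MSL1 and MSL2 were counted within 500 bp, GA repeats within 100 bp and words within 50 bp of a summit. Intervals are Wilson or order-statistic intervals at 95%. Named genes are those at the 3 strongest records of 6 classes, the 3 widest X records of each list, the 3 X pairs and the 3 autosomal pairs farthest apart, the 3 X pairs most unequal in rank each way, the 2 female X records with most partners, and 12 genes of the complex and the transgenes; others are marked. The members and lists were chosen with earlier results of these data known. Pairing was tested on simulated data against bedtools 2.31.1. The scripts ran in Python 3.11.15 with pandas 2.3.3, numpy 2.4.6, scipy 1.17.1 and matplotlib 3.10.9. Alternatives were gaps of 0 and 1000 bp, summits in place of edges, the strongest 50% of each list, lists of equal length, a global IDR of at most 0.01, joined records, the 6 arms only, ranks by fold enrichment, the partner of highest −log10 p, promoters of 1000 bp, windows of 50 bp, repeats of 10 bases and, added after the data were seen, male positions of IDR input 1. Coverage tracks were not used here.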

Additional observations from a re-analysis of the deposited data

How the results depend on the processing

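Of 179 values recomputed under 14 alternatives, 117 stayed within the 95% interval of the reported value and 62 moved out of it. Some of the 117 could not move, so the count is no measure of robustness. These include all values with joined records. They also include values of the female list alone with lists of equal length or at a global IDR of at most 0.01. The share of female records with a male record was 59.3% with summits within 500 bp, 81.8% with lists of equal length and 95.3% on the 6 arms. The share of male records with a female record was 17.1% with a gap of 0 bp, 22.3% with a gap of 1000 bp, 14.9% with summits within 500 bp, 20.2% in the strongest 50%, 57.8% with lists of equal length and 23.9% at a global IDR of at most 0.01. The female X share was 64.0% in the strongest 50%; the male X share was 43.0% there, 57.9% with lists of equal length and 34.4% at a global IDR of at most 0.01. The median X summit distance was 116 bp in the strongest 50%, 517 bp with lists of equal length and 564 bp with the partner of highest −log10 p, and the autosomal distance was 8 bp in the strongest 50%. The Spearman correlation of X ranks was 0.54 with summits within 500 bp, 0.28 in the strongest 50% and 0.29 by fold enrichment. In the strongest 50% the median X width was 1101 bp in females and 1905.5 bp in males, and in males it was 2574 bp with lists of equal length and 1552 bp at a global IDR of at most 0.01. The promoter share of shared female autosomal summits was 77.4% with promoters of 1000 bp; the exonic share of male-only autosomal summits was 52.4% in the strongest 50%, 36.3% with lists of equal length and 45.2% with promoters of 1000 bp. HAS lay at 55.3% of shared male X records in the strongest 50% and at 41.1% with lists of equal length, and at 10.2% and 11.9% of male-only ones, in place of 5.75%; with a gap of 0 bp the male-only share was 3.65%. GA repeats at male-only X summits were at 6.29% in the strongest 50% and with lists of equal length (6.29%), 6.32% within 50 bp and 4.25% for 10 bases. Male positions of IDR input 1, added after the data were seen, moved none of the values named here out of its interval, though they gave a male record to 95.1% of female X records and a median male autosomal width of 839 bp. The causes were not tested, but fewer records enter the shorter lists by construction. No records overlapped within a list, so joining them changed nothing. No paired analysis was possible because each group has 1 list, in which its replicates are merged; for the same reason no replicate could be left out. Depth is unknown, so a record missing from the shorter female list is not shown to be unbound.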
